A study of Mus musculus with 468 samples.

Results

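Transcripts picked from the brown adipose tissue (BAT) of wild-type mice on chow were followed here through every other setting of the series: other mouse models, a lower dose, native hormone and white adipose tissue. The genes were Pla2g2e, Tacr2, Slco4a1, Lgr6, Nkain1 and the RIKEN transcripts 2310069B03Rik, 4933433H22Rik and 4631405J19Rik. They were taken from the largest responses of WT-chow BAT to FGF21, so their measured values in that tissue chose them. The 8 genes had 9 probe sets under these symbols among the 43681 on the array, of which 30342 carry a single gene symbol. Lgr6 had a pair of probe sets, and for each gene the probe set with the highest mean level stands for it.

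The 468 arrays profiled BAT and white fat from inguinal (IWAT), epididymal (EWAT) and retroperitoneal sites (RPWAT) of male mice treated at 8 weeks of age. WT-chow and WT-HFD were C57BL/6 wild-type mice on chow or on a high fat diet. The db/db-chow mice were db/db mice on chow, which carry a leptin receptor mutation in the whole body and become obese and diabetic. Each model received saline vehicle, WT FGF21 (the native protein, 1.25 mg/kg) or PEG30-FGF21 Q108 (FGF21 carrying a polyethylene glycol chain, 0.75 or 2.5 mg/kg) by subcutaneous injection, with tissue taken at the 2 d or 5 d time point. Vehicle and WT FGF21 were injected repeatedly (BID in the plots) and the last injection came about 6 h before dissection. PEG30-FGF21 Q108 had been given as a single dose by 2 d and again by 5 d (BIW in the plots), with about 30 h between the last dose and dissection. For PEG30-FGF21 Q108, treatment and the time since the last injection therefore cannot be told apart, and both conditions hold for all PEG30 values below. Groups held 3 to 5 arrays, and each BAT group held 5 except WT FGF21 in WT-HFD at 5 d, which held 4.

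FGF21 is a hormone of the fibroblast growth factor family that signals through FGF receptors together with the co-receptor beta-Klotho, and adipose tissue is among its known targets. BAT burns fuel to make heat through the uncoupling protein Ucp1, while white depots mainly store and release fat. Among the 8 genes, Pla2g2e encodes a secreted phospholipase A2 that frees fatty acids from phospholipids outside the cell. Tacr2 encodes the neurokinin A receptor, a G protein-coupled receptor for a tachykinin peptide, and Lgr6 a receptor for R-spondins, secreted proteins that strengthen Wnt signals. Slco4a1 encodes an organic anion transporter of the cell membrane that can carry thyroid hormone, and Nkain1 a membrane protein named for its binding to the beta subunit of the sodium pump. RefSeq lists 2310069B03Rik, 4933433H22Rik and 4631405J19Rik as long non-coding RNAs, and no function is given for them here.

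Promoters of these genes, from 250 bases before to 50 bases after the RefSeq start (GRCm38.p6), were searched on both strands for 5 motifs, because the genes were picked for their responses in BAT. The 8 genes had 9 such windows. The motif TGANTCA, bound by AP-1 dimers of Fos and Jun proteins, lay in 3 of the 9 member promoters and in 7.81% of all 32851 promoters in the table. The 3 promoters are shown 5′ to 3′ with the motif in capitals.
Pla2g2e, chr4:138877692-138877991, plus strand: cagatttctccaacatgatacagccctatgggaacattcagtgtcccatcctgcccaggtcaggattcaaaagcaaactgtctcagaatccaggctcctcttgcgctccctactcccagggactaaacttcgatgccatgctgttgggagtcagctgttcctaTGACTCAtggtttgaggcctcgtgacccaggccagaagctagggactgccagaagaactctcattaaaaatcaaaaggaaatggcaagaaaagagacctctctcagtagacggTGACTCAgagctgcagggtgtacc
2310069B03Rik, chr6:82881804-82882103, minus strand: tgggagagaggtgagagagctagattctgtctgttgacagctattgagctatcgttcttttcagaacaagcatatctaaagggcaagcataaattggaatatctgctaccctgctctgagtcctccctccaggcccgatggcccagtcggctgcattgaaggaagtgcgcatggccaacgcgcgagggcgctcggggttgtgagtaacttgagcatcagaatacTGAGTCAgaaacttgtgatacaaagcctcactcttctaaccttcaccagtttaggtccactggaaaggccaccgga
4933433H22Rik, chr17:84078410-84078709, plus strand: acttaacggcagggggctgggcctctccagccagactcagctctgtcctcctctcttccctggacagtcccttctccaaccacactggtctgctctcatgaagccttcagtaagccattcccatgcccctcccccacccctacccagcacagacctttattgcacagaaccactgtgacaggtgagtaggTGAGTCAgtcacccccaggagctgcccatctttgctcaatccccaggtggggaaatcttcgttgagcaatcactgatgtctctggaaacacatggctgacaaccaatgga
The Pla2g2e window held TGACTCA with its first base 87 bases before the start and again 26 bases after it. In 2310069B03Rik the letters were TGAGTCA, 26 bases before the start, and in 4933433H22Rik the same letters lay 60 bases before it. The cyclic AMP response element TGACGTCA was in none of the 9 windows (1.79% of all promoters), nor was a direct repeat of AGGTCA around any 1 base, as nuclear receptor pairs bind (0.0396%) or the ETS motif CCGGAAGT (3.89%). The E box CACGTG was in the Nkain1 window only (7.15% of all). A match is a string and not a shown binding site, and these counts carry no test.

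**Figure D1:**
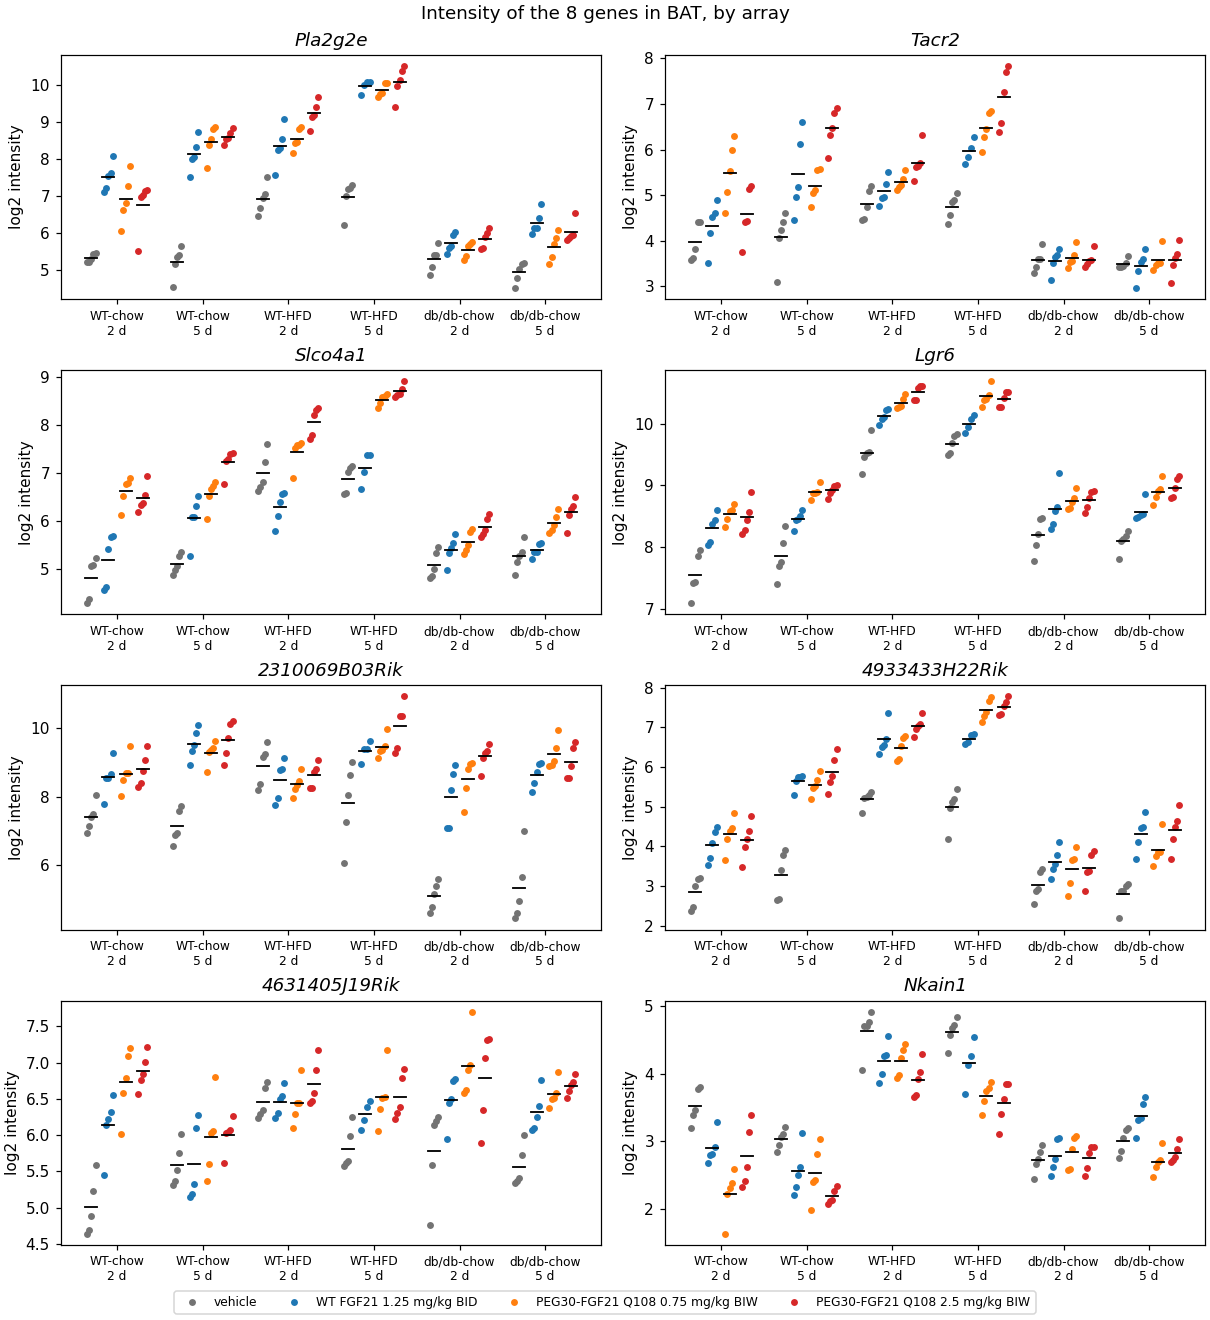
Level of the 8 genes in every BAT array, as log2 of the deposited intensity, in 3 mouse models at 2 d and 5 d; points are arrays coloured by treatment and black lines are group means. In WT-HFD at 5 d all 5 arrays at 2.5 mg/kg lay above all 5 vehicle arrays for Pla2g2e, Tacr2, Slco4a1, Lgr6, 2310069B03Rik and 4933433H22Rik, and below them for Nkain1.

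In WT-chow BAT, which served to choose the genes, values are given as description without a test. At 2.5 mg/kg and 5 d, Pla2g2e had the second largest rise of all probe sets (rank 2, log2 change 3.38), with vehicle arrays at 23.1, 35.5, 40.5, 42.4 and 50.1 and treated arrays at 329.5, 371, 376, 412 and 458 intensity units. These units are taken as a linear scale from their range, since the labels do not state it, and every log2 change rests on that. Ranks 6, 7, 9 and 14 at 5 d belonged to 4933433H22Rik (2.58), 2310069B03Rik (2.50), Tacr2 (2.39) and Slco4a1 (2.12). 4631405J19Rik held rank 2 at 2 d (1.88, vehicle 24.9 to 47.9 and treated 95.2 to 149) and rank 2015 at 5 d (0.41). Lgr6 held rank 66 at 2 d (0.93) and rank 165 at 5 d (1.06). Nkain1 was the only member that went down, with rank 199 from the bottom at 2 d (log2 change −0.75) and rank 348 from the bottom at 5 d (−0.85). Tacr2 held rank 238 at 2 d (0.62).

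The lower dose and the native protein in WT-chow BAT share these vehicle arrays, and their values are set side by side without a test. Pla2g2e changed by 2.19 with WT FGF21, 1.59 at 0.75 mg/kg and 1.44 at 2.5 mg/kg at 2 d, and by 2.91, 3.25 and 3.38 at 5 d on the log2 scale. For Slco4a1 the log2 change was 0.39 with WT FGF21 against 1.81 and 1.67 at the 2 PEG30 doses at 2 d, and 0.94 against 1.44 and 2.12 at 5 d. At 5 d its arrays with WT FGF21 (38.8 to 92.1) and at 0.75 mg/kg (65.7 to 112) overlapped. The 2.5 mg/kg values are among those that chose the genes, so their excess over the other regimens is in part set by the choice. Tacr2 gave 0.36, 1.52 and 0.62 at 2 d, the lower dose being highest, and 1.38, 1.12 and 2.39 at 5 d. For Nkain1 the log2 changes were −0.63, −1.30 and −0.75 at 2 d and −0.48, −0.51 and −0.85 at 5 d.

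BAT of WT-HFD and db/db-chow mice played no part in the choice, and there the responses were tested with limma across all probe sets, a change being called at adjusted p below 0.05. In whole tissue, fewer cells of a type and less RNA per cell cannot be told apart. WT-HFD and db/db-chow differ in genotype, diet and supplier at once, so the part of each in a difference between them cannot be told apart. Medians of BAT arrays also differed, at 29 to 31 in WT-HFD and 18.1 to 19.3 in db/db-chow. Of 32 member tests at 2.5 mg/kg, 22 were called higher and 2 lower. In WT-HFD, 5 members rose and 1 fell at 2 d, when 2.00% of all probe sets were called higher and 3.98% lower, and 7 rose and 1 fell at 5 d, against 5.90% and 8.14%. In db/db-chow, 4 members rose at 2 d (5.39% of all probe sets called higher, 4.06% lower) and 6 at 5 d (9.14% higher, 9.63% lower), and none fell. The median log2 change of the 8 members in WT-HFD was 0.96 at 2 d and 2.05 at 5 d and that in db/db-chow was 0.56 at 2 d and 1.0 at 5 d, while the median over all probe sets lay between −0.013 and 0.022. An analysis of variance of each probe set on the compared groups alone called 17 of the 24. That is the kind of test the study's methods name, run here with Benjamini-Hochberg adjustment over all probe sets and without the methods' filters on fold change and presence. The lost calls were those of Tacr2, Slco4a1 and Nkain1 in WT-HFD at 2 d, of 2310069B03Rik and 4631405J19Rik in WT-HFD at 5 d, and of Lgr6 and 4631405J19Rik in db/db-chow at 2 d.

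Pla2g2e, the secreted phospholipase, rose in WT-HFD BAT at both days. At 2 d the vehicle arrays read 87.2, 102, 122, 134 and 181 and the 2.5 mg/kg arrays 430.2, 560, 581, 679.8 and 819, with no overlap (log2 change 2.30, SE 0.24, adjusted p = 1.5e-12). At 5 d vehicle arrays read 73.9, 128, 146, 148 and 156 and treated arrays 682, 998, 1115, 1336 and 1456, which is 8.58-fold (log2 change 3.10, SE 0.24, adjusted p = 9.3e-20). Every treated array exceeded every vehicle array on both days. In db/db-chow the rise was smaller. At 2 d the groups overlapped (0.54, SE 0.24, adjusted p = 0.17, or 0.047 with other models left out), and at 5 d vehicle arrays read 22.8, 27.5, 32.7, 35.5 and 36.5 and treated arrays 56.3, 58.7, 60.5, 61.4 and 93, a 2.12-fold rise (adjusted p = 0.00022). The difference between the models' responses was itself significant, at 1.77 (SE 0.33, adjusted p = 0.00015) at 2 d and 2.02 (SE 0.33, adjusted p = 3.9e-06) at 5 d on the log2 scale.

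Tacr2, the neurokinin A receptor, rose in WT-HFD and gave no called change in db/db-chow. In WT-HFD at 5 d its vehicle arrays read 20.5, 23.6, 28.7, 29.7 and 33.3 and the 2.5 mg/kg arrays 83.3, 95.8, 154, 208 and 228, with no overlap (5.32-fold, log2 change 2.41, SE 0.26, adjusted p = 1.8e-12). At 2 d the change was smaller, with vehicle at 22.1 to 37.1 and treated at 39.6 to 79.5 (0.92, SE 0.26, adjusted p = 0.017). That call was lost without treated replicate 4 (0.77, adjusted p = 0.093), vehicle replicate 3 (0.84, adjusted p = 0.051) or vehicle replicate 5 (0.83, adjusted p = 0.06). In db/db-chow at 5 d vehicle arrays lay between 10.7 and 12.7 and treated arrays between 8.48 and 16.3 (0.09, 95% interval −0.43 to 0.61, adjusted p = 0.86). These db/db-chow readings were under the median of the arrays of that tissue and model, 18.1 to 19.3, so a change there would be read near the floor. The models' responses to 2.5 mg/kg differed by 2.32 at 5 d (SE 0.37, adjusted p = 1.6e-06).

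Lgr6 encodes the R-spondin receptor. It was called higher in 11 of the 12 BAT tests outside WT-chow, with log2 changes of 0.34 to 1.0 over the 12, and in 6 of the 12 by the analysis of variance. The 5 calls lost that way were all at 2 d: in WT-HFD at 0.75 mg/kg (adjusted p = 0.088) and with WT FGF21 (adjusted p = 0.073), and in db/db-chow at 2.5 mg/kg (adjusted p = 0.069), 0.75 mg/kg (adjusted p = 0.11) and with WT FGF21 (adjusted p = 0.4). In db/db-chow the WT FGF21 call at 2 d was also lost when other groups were left out (adjusted p = 0.23) and without replicate 2, 3 (0.34, adjusted p = 0.21) or 4, that at 5 d without replicate 1 (0.33, adjusted p = 0.13), and that at 0.75 mg/kg and 2 d without replicate 3 (0.40, adjusted p = 0.1). At 2.5 mg/kg in WT-HFD, vehicle arrays read 579, 706, 737, 743 and 959 and treated arrays 1335, 1341, 1536, 1562 and 1573 at 2 d (log2 change 1.0, SE 0.13, adjusted p = 3.9e-09), with no overlap. At 5 d the rise was 0.73 (SE 0.13, adjusted p = 4.1e-06). In db/db-chow Lgr6 rose by 0.57 at 2 d (adjusted p = 0.00057) and by 0.87 at 5 d (adjusted p = 4e-08), from vehicle arrays of 223, 275, 282, 289 and 308 to treated arrays of 445, 449, 498, 549 and 567. The second Lgr6 probe set rose in the same 4 comparisons, by 1.13 (2 d) and 1.24 (5 d) in WT-HFD mice and by 0.85 and 1.37 among db/db-chow mice, so the probe sets of Lgr6 share direction but not size. The Lgr6, Pla2g2e and Slco4a1 probe sets are of a type shared by several transcripts, and their readings may sum more than the named gene.

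Slco4a1, the organic anion transporter, rose at 2.5 mg/kg in both models and at both days. In WT-HFD vehicle arrays read 99.3, 105, 113, 149.5 and 195 and treated arrays 208, 221, 294, 318 and 324 at 2 d (log2 change 1.07, SE 0.19, adjusted p = 2.5e-05). At 5 d vehicle arrays read 94, 95.7, 130.2, 137 and 142 and treated arrays 382, 392, 401, 431 and 479 (1.82, SE 0.19, adjusted p = 4.1e-13). The groups did not overlap at either day. In db/db-chow the rises were 0.79 (adjusted p = 0.0019) and 0.92 (adjusted p = 9.5e-05), also without overlap. The difference between models was called at 5 d (0.90, SE 0.27, adjusted p = 0.02) and was lost without replicate 3 (0.88, adjusted p = 0.053) or replicate 4 (0.78, adjusted p = 0.12) of each group.

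2310069B03Rik gave the largest fold of the 8 genes, and did so in db/db-chow. Its vehicle arrays there read 24.4, 27.2, 35.7, 41.8 and 48 at 2 d and its 2.5 mg/kg arrays 389.9, 562, 623, 650.1 and 740 (16.9-fold, log2 change 4.08, SE 0.35, adjusted p = 1.6e-16). At 5 d vehicle arrays read 21.8, 24.4, 30.7, 50.8 and 127 and treated arrays 378, 378, 474, 682 and 777 (12.8-fold, adjusted p = 5.3e-15). In WT-HFD at 2 d the same transcript did not pass the test, with vehicle at 292, 329.8, 571, 609 and 779 and treated at 306 to 537 (−0.29, SE 0.35, adjusted p = 0.79). At 5 d WT-HFD vehicle arrays were spread over 67.2, 153, 267, 399 and 513, and treated arrays read 624, 693, 1324, 1324 and 1955 (2.27, SE 0.35, adjusted p = 2.5e-07). The response of WT-HFD minus that of db/db-chow was −4.37 at 2 d (SE 0.50, adjusted p = 2.8e-10). The response at 5 d minus that at 2 d in WT-HFD was 2.56 (adjusted p = 0.0028), or 2.06 (adjusted p = 0.081) without replicate 2. Its WT-HFD vehicle arrays spanned 67.2 to 779 over both days.

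4933433H22Rik rose in WT-HFD at both days, from vehicle arrays of 28.6 to 41.3 to treated arrays of 109 to 163 at 2 d (1.85, SE 0.24, adjusted p = 5.1e-09), and from 18.1 to 43.8 to 157 to 219 at 5 d (2.53, SE 0.24, adjusted p = 3.1e-15). In db/db-chow it rose at 5 d only, from 4.54, 7.31, 7.33, 8.01 and 8.35 to 12.8, 18.1, 22.5, 24.8 and 32.9 (1.61, adjusted p = 5.3e-08), with vehicle readings under the array median. At 2 d the db/db-chow change was 0.43 (adjusted p = 0.33). The models' responses differed at 2 d (1.42, SE 0.34, adjusted p = 0.0038). The db/db-chow response at 5 d exceeded that at 2 d by 1.18 (SE 0.34, adjusted p = 0.044), and this call was lost without any of replicates 1, 2 (0.89, adjusted p = 0.29), 4 or 5.

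4631405J19Rik rose in db/db-chow at both days. At 5 d vehicle arrays there read 40.6, 41.1, 42.3, 52.7 and 64 and treated arrays 91.2, 97.3, 103, 107 and 115 (1.11, SE 0.23, adjusted p = 9.9e-05), with no overlap. At 2 d the change was 1.0 (adjusted p = 0.00097) with overlapping groups, and it was not called when other groups were left out of the fit (adjusted p = 0.076). In WT-HFD the 2 d change was 0.26 (adjusted p = 0.68) and the 5 d change 0.71 (adjusted p = 0.023), with 75.9 the highest vehicle array and 74.8 the lowest treated array. That last call was lost without treated replicate 3 (0.64, adjusted p = 0.072) or 5 (0.61, adjusted p = 0.085), or without vehicle replicate 1 (0.65, adjusted p = 0.06), 2 (0.67, adjusted p = 0.059) or 4 (0.66, adjusted p = 0.063).

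Nkain1 was the member that fell. In WT-HFD at 5 d its vehicle arrays read 19.9, 23.7, 25.7, 26.3 and 28.7 and its 2.5 mg/kg arrays 8.62, 10.6, 12.3, 14.4 and 14.4, all below (2.09-fold lower, log2 change −1.06, SE 0.17, adjusted p = 4.9e-07). At 2 d vehicle arrays read 16.6, 26.2, 26.2, 27.3 and 30.3 and treated arrays 12.6 to 19.5, which overlap through the lowest vehicle array (−0.72, adjusted p = 0.0019). In db/db-chow no change was called (0.02 at 2 d, −0.18 at 5 d), from vehicle readings of 5.44 to 9.18. The Nkain1 readings of both models were under or near the array medians (29 to 31 in WT-HFD). A further probe set, tied to Nkain1 in the study's tables but not by the platform symbol, read the same way. Its log2 changes were −1.05 (adjusted p = 0.0027) and −1.98 (adjusted p = 6.6e-10) in WT-HFD. The db/db-chow changes were −0.20 and −0.48, and neither was called. The models' Nkain1 responses differed by −0.88 at 5 d (SE 0.24, adjusted p = 0.0078).

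Between WT-HFD and db/db-chow, 3 of 8 response differences were called at 2 d, when 3.64% of all probe sets were, and 4 of 8 at 5 d, when 8.25% were. Between days, 2 of 8 were called in WT-HFD (0.385% of all probe sets), namely 2310069B03Rik and Tacr2, and 1 of 8 in db/db-chow (1.73%), namely 4933433H22Rik. The Tacr2 difference, 1.5 (adjusted p = 0.036), was lost without any of replicates 1, 2 (1.17, adjusted p = 0.47), 4 or 5. When other groups were left out of the fit, none of these 3 day differences was called.

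**Figure D2:**
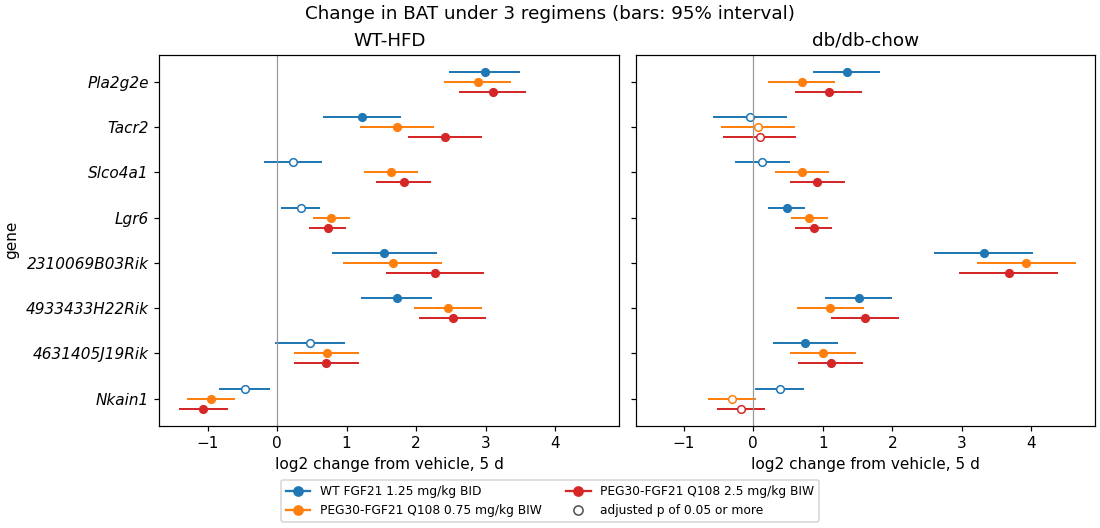
Change from vehicle of the 8 genes in BAT at 5 d, in log2 units with 95% intervals, for WT FGF21 at 1.25 mg/kg and each dose of PEG30-FGF21 Q108 (0.75 or 2.5 mg/kg), in WT-HFD and db/db-chow; filled symbols passed the test. In WT-HFD the Slco4a1 change was 0.23 with WT FGF21 and 1.64 and 1.82 with the lower and higher PEG30 dose.

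The native protein and the lower dose were compared with the same vehicle groups as the higher dose, so their counts are not separate evidence. At 0.75 mg/kg in WT-HFD, 3 members rose at 2 d (1.54% of all probe sets called in either direction) and 7 rose and 1 fell at 5 d (9.18%). In db/db-chow, 3 rose at 2 d (6.53%) and 6 at 5 d (21.0%). With WT FGF21 in WT-HFD, 3 members rose and 1 fell at 2 d (14.0%) and 4 rose at 5 d (9.92%). In db/db-chow, 3 rose at 2 d (6.27%) and 5 at 5 d (11.6%). Over these 64 tests 36 calls were made, and 21 by the analysis of variance.

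Pla2g2e in WT-HFD at 5 d read 822 to 1065 at 0.75 mg/kg and 841 to 1074 with WT FGF21, with changes of 2.88 and 2.99 beside 3.10 at the higher dose. In db/db-chow at 5 d the Pla2g2e changes were 0.70 (adjusted p = 0.023, groups overlapping) and 1.35 (adjusted p = 8.2e-06). The first was lost by the analysis of variance (adjusted p = 0.054) and without replicate 1 (0.54, adjusted p = 0.14) or 5 (0.64, adjusted p = 0.087). At 2 d in WT-HFD Pla2g2e rose by 1.62 and 1.42 under these regimens, neither called by the analysis of variance (adjusted p = 0.073 and 0.078). 2310069B03Rik in db/db-chow rose under every regimen, by 3.42 and 3.93 at 0.75 mg/kg and by 2.89 and 3.32 with WT FGF21 at 2 d and 5 d. In WT-HFD it was not called at 2 d under either (−0.55 and −0.42), as at the higher dose, and rose at 5 d (1.66 and 1.54). By the analysis of variance neither 5 d rise of 2310069B03Rik in WT-HFD was called (adjusted p = 0.15 and 0.24), and that with WT FGF21 was also lost when other groups were left out of the fit (adjusted p = 0.056) or without replicate 2 (1.09, adjusted p = 0.071).

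Tacr2 rose in WT-HFD at 5 d at 0.75 mg/kg (1.73, adjusted p = 2.4e-07, arrays at 61.7 to 116) and with WT FGF21 (1.22, adjusted p = 0.00089, arrays at 51.8 to 77.2), in each case above all vehicle arrays. Its 6 db/db-chow changes over regimens and days lay between −0.04 and 0.09. 4933433H22Rik rose in WT-HFD under both, by 1.28 and 2.46 at 0.75 mg/kg and by 1.5 and 1.72 with WT FGF21, and in db/db-chow at 5 d by 1.11 and 1.52. Its WT-HFD call at 0.75 mg/kg and 2 d was lost by the analysis of variance (adjusted p = 0.073). 4631405J19Rik rose in db/db-chow in all 4 of these tests (0.70 to 1.17) and in WT-HFD only at 0.75 mg/kg and 5 d (0.71, adjusted p = 0.032). Of these 5 calls of 4631405J19Rik, that at 0.75 mg/kg and 5 d in db/db-chow alone held under every alternative fit. The WT FGF21 call at 2 d was lost when other groups were left out (adjusted p = 0.19), when other models were left out (adjusted p = 0.076) and by the analysis of variance (adjusted p = 0.37). The WT FGF21 call at 5 d was lost with array weights (adjusted p = 0.053) and by the analysis of variance (adjusted p = 0.061). At 0.75 mg/kg the 2 d call in db/db-chow was lost by the analysis of variance (adjusted p = 0.15), and the WT-HFD call with array weights (adjusted p = 0.067) and by the analysis of variance (adjusted p = 0.13). Leaving out a replicate number ended the WT FGF21 calls at 2 d (without 1, 3, 4 or 5, at most adjusted p = 0.36) and at 5 d (without 2 or 5, at most 0.096) and the WT-HFD call (without 2, 3 or 4, at most 0.18). Lgr6 missed the test once, with WT FGF21 in WT-HFD at 5 d (0.34, adjusted p = 0.098), where all 4 treated arrays still lay above vehicle, and passed with only the depot and model in the fit (adjusted p = 0.029) or without replicate 5 (0.43, adjusted p = 0.038). Nkain1 fell at 0.75 mg/kg in WT-HFD at 5 d, to 10.4 to 14.6 (−0.95, adjusted p = 1.1e-05), and gave −0.44 to −0.47 in the other 3 WT-HFD tests, none called. With WT FGF21 it passed there without replicate 3 at 2 d (−0.60, adjusted p = 0.024) and without replicate 1 at 5 d (−0.67, adjusted p = 0.019). In db/db-chow Nkain1 gave 0.11 and −0.31 at 0.75 mg/kg and 0.06 and 0.38 with WT FGF21 at 2 d and 5 d, none called (adjusted p = 0.15 for the last).

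Slco4a1 was the only member called in both directions in BAT. With WT FGF21 in WT-HFD at 2 d it read 55.9, 69.4, 84.2, 94.8 and 96.6, all below the 5 vehicle arrays (−0.70, SE 0.19, adjusted p = 0.0055). At the same day and in the same model it was higher at 2.5 mg/kg, as given above. The fall was not called when other groups were left out of the fit (adjusted p = 0.082), by the analysis of variance (adjusted p = 0.2) or without replicate 2 (adjusted p = 0.051). At 5 d WT FGF21 gave Slco4a1 0.23 (adjusted p = 0.58) in WT-HFD and 0.13 (adjusted p = 0.77) in db/db-chow, while 0.75 mg/kg gave 1.64 (adjusted p = 5.2e-11) and 0.70 (adjusted p = 0.0035). WT FGF21 and PEG30-FGF21 Q108 differed in dose, schedule and time since the last injection, and no test was made between them.

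The 2 PEG30 doses were matched in schedule and time. None of the 8 genes differed between 2.5 and 0.75 mg/kg after adjustment over all probe sets in WT-HFD (0.424% of probe sets called at 2 d, 0.0801% at 5 d) or db/db-chow (0.00458% at each day). At an unadjusted p below 0.05, limma counted 3 members at 2 d and 1 at 5 d in WT-HFD, against 0 and 1 for db/db-chow, and the analysis of variance gave 0 adjusted calls too. The differences ran from −0.28 to 0.69. The 3 with the lowest adjusted p were, as the higher minus the lower dose, Slco4a1 at 2 d in WT-HFD (0.63, 95% interval 0.25 to 1.0, adjusted p = 0.13), Pla2g2e at 2 d in WT-HFD (0.68, 0.21 to 1.15, adjusted p = 0.21) and Tacr2 at 5 d in WT-HFD (0.69, 0.17 to 1.2, adjusted p = 0.26). Differences of like size had wider intervals that held 0, as for 2310069B03Rik at 2 d in db/db-chow (0.66, −0.04 to 1.35) and at 5 d in WT-HFD (0.61, −0.09 to 1.31).

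**Figure D3:**
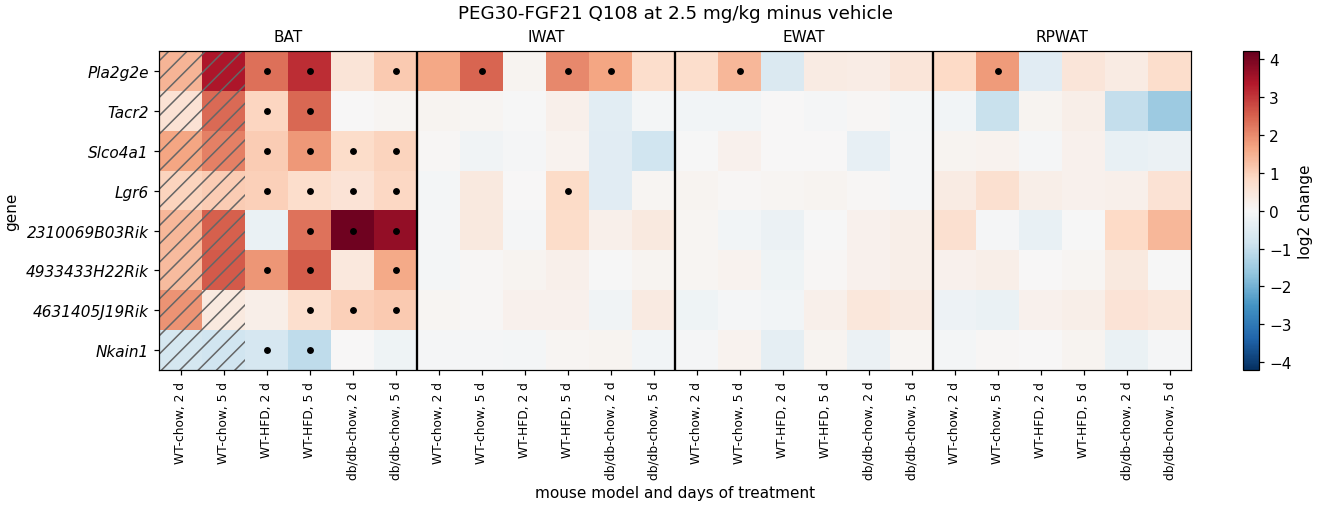
Log2 change at 2.5 mg/kg from vehicle for the 8 genes in 4 depots, 3 models and 2 days; a dot marks adjusted p below 0.05 and hatching the WT-chow BAT values that chose the genes. Outside BAT, dots are in the Pla2g2e row 5 times and in the Lgr6 row 1 time.

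White depots were tested in the same way. The WT-chow mice are those whose BAT chose the genes, since by the study's methods all depots were taken from each group's animals. White tests in WT-chow, and averages that include them, are therefore not independent of the choice. Most members were dim there: by their mean over a depot's arrays, only Pla2g2e and 4631405J19Rik lay above the median probe set of all 3 white depots and Slco4a1 above that of EWAT and RPWAT, so 48 of the 144 member tests at 2.5 mg/kg were on brighter probe sets and 96 on dim ones. Of the 144, 6 were called, all higher, and 5 of the 6 were Pla2g2e. With only probe sets above the depot median tested, 6 of the 48 were called, all Pla2g2e, WT-chow IWAT at 2 d (adjusted p = 0.032) being added and Lgr6 not tested. The analysis of variance called 2, of which only Pla2g2e in WT-chow IWAT at 5 d was among the 6, the other being Lgr6 in db/db-chow RPWAT at 5 d (0.62, adjusted p = 0.043). In IWAT the share of all probe sets called was 0.561% and 0.994% in WT-chow at 2 d and 5 d, 0.421% and 1.70% in WT-HFD, then 17.3% and 0.101% for db/db-chow. In EWAT it was 2.50% and 3.66%, 1.54% and 3.94%, and 0.192% and 1.05% in the same order, and in RPWAT 1.87% and 4.01%, 1.49% and 4.68%, and 0.135% and 2.73%. Over all probe sets 2 IWAT arrays stood apart, db/db-chow vehicle at 2 d replicate 2 and WT-HFD with WT FGF21 at 5 d replicate 3. Without both, 9 of the 144 white tests were called. The added calls were Pla2g2e in WT-chow IWAT at 2 d (1.62, adjusted p = 0.0025), 2310069B03Rik in WT-HFD IWAT at 5 d (0.77, adjusted p = 0.026) and Slco4a1 in db/db-chow IWAT at 5 d, which was lower (−0.83, adjusted p = 0.0013).

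In WT-chow IWAT at 5 d, Pla2g2e read 104, 108.3, 155, 159 and 274 with vehicle and 527, 778, 800.4, 980 and 1180 at 2.5 mg/kg, with no overlap (2.46, SE 0.43, adjusted p = 0.00015). In WT-HFD IWAT at 5 d vehicle arrays read 51.1, 168, 169, 305 and 621 and treated arrays 599, 659, 851, 862 and 1080.0 (2.03, adjusted p = 0.002), overlapping by the highest vehicle array. When other groups were left out of the fit, this call was lost (adjusted p = 0.13), as was the next (adjusted p = 0.088), and by the analysis of variance their adjusted p was 0.26 and 0.2. In db/db-chow IWAT at 2 d vehicle arrays read 72.4 to 209.7 and treated arrays 361 to 437 (1.66, adjusted p = 0.0055), without vehicle replicate 2 the change was 1.46 (adjusted p = 0.12), and without both arrays that stood apart it was 1.46 with an adjusted p of 0.016. The other Pla2g2e calls were at 5 d in WT-chow, in RPWAT (1.79, adjusted p = 0.0014, 3 vehicle arrays at 154 to 246 and treated at 445 to 877) and in EWAT (1.38, adjusted p = 0.0079, vehicle 116 to 245 and treated 293 to 619). By the analysis of variance neither was called (adjusted p = 0.098 in RPWAT and 0.087 in EWAT), and the EWAT call was lost without vehicle replicate 5 (1.21, adjusted p = 0.054). WT-chow IWAT at 2 d missed the threshold (1.62, adjusted p = 0.055), and passed without treated replicate 1 (1.98, adjusted p = 0.012). In WT-HFD at 2 d the Pla2g2e changes of EWAT and RPWAT were negative and not called (−0.61 and −0.49).

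**Figure D4:**
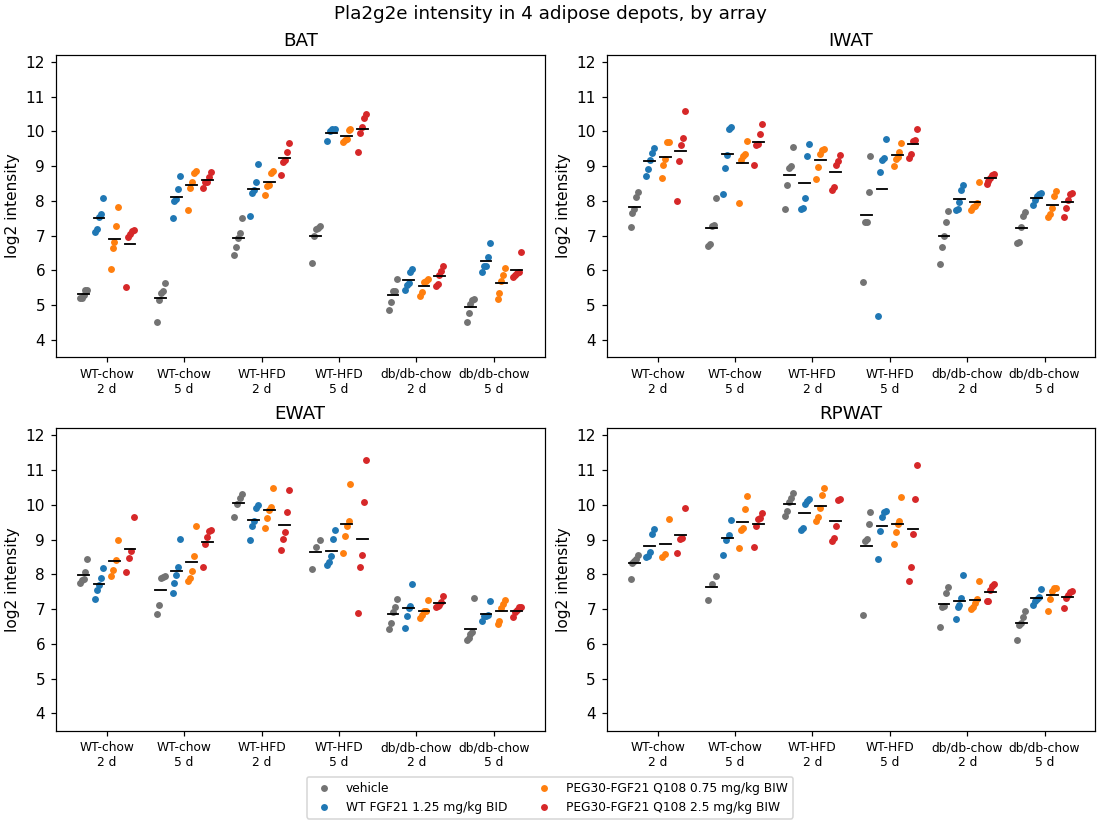
Pla2g2e in every array of the 4 depots, as log2 of the deposited intensity, by model, day and treatment. Vehicle levels in WT-HFD had medians of 131 in BAT, with 329.6 for IWAT, 801.5 for EWAT and 849 for RPWAT, and treated BAT arrays at 5 d reached 682 to 1456.

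Without treatment Pla2g2e was read in white fat too. Its WT-HFD vehicle arrays lay between 73.9 and 181 in BAT, while IWAT spanned 51.1 to 743, EWAT 286 to 1264 and RPWAT 114 to 1300.0. Levels were not tested between depots, because array medians differed between depots and models (BAT 29 to 31, IWAT 51.5 to 55.1, EWAT 40 to 42.6 and RPWAT 33.9 to 36.2 in WT-HFD). Lgr6 ran the other way: in WT-HFD vehicle arrays it read 579 to 959 in BAT and 7.8 to 26.8 over the 3 white depots, and 2310069B03Rik read 67.2 to 779 in BAT and 6.06 to 53.8 in the white depots.

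At 2.5 mg/kg the only white call of another member was Lgr6 in IWAT of WT-HFD at 5 d, with vehicle at 12.8, 15.1, 17, 17.1 and 18.7 and treated at 17, 21.7, 26.6, 33.7 and 53.7 (0.81, adjusted p = 0.0055), lost without treated replicate 5 (0.58, adjusted p = 0.11) and when other groups were left out of the fit (adjusted p = 0.24) or by the analysis of variance (adjusted p = 0.35). For the remaining 6 members the 18 white changes each ran from −0.17 to 0.41 (4933433H22Rik), −0.30 to 1.40 (2310069B03Rik), −0.27 to 0.58 (4631405J19Rik), −0.37 to 0.16 (Nkain1), −0.83 to 0.19 (Slco4a1) and −1.54 to 0.26 (Tacr2). Averaged over all FGF21 groups, models and days, Pla2g2e was higher in IWAT (1.2, SE 0.15, adjusted p = 1.6e-10, with 12.4% of all probe sets called) and in RPWAT (0.60, SE 0.12, adjusted p = 6.5e-05, 13.0% called), and gave 0.30 in EWAT (adjusted p = 0.1, 11.4% called). Lgr6 (0.35, adjusted p = 0.0016) and 2310069B03Rik (0.54, adjusted p = 0.015) were also higher on average in RPWAT, and 2310069B03Rik in IWAT (0.23, adjusted p = 0.033). The IWAT average of 2310069B03Rik was not called without replicate 1 (0.19, adjusted p = 0.19), 2 (0.22, adjusted p = 0.083), 4 (0.26, adjusted p = 0.057) or 5 (0.20, adjusted p = 0.1), nor its RPWAT average without replicate 1 (0.48, adjusted p = 0.095), 2 (0.47, adjusted p = 0.066) or 4 (0.48, adjusted p = 0.076). Without the 2 IWAT arrays 3 more members passed there, 4631405J19Rik (0.12) and Lgr6 (0.14) higher and Slco4a1 (−0.16) lower.

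At 0.75 mg/kg, 5 of 144 white member tests were called, all higher, when 1.76% of all probe set tests were, and with WT FGF21 4 were higher and 3 lower, when 3.16% were. These share vehicle arrays with the higher dose, and in WT-chow the vehicle mice are those whose BAT helped choose the genes. Pla2g2e rose in WT-chow at 5 d under both, by 1.87 (adjusted p = 0.014, groups overlapping) and 2.11 (adjusted p = 0.0045) in IWAT and by 1.86 (adjusted p = 0.0013) and 1.41 (adjusted p = 0.041) in RPWAT. In db/db-chow RPWAT at 5 d 2310069B03Rik rose by 1.73 at 0.75 mg/kg (adjusted p = 0.019) and by 1.82 with WT FGF21 (adjusted p = 0.0069, groups overlapping), and Lgr6 by 0.91 at 0.75 mg/kg (adjusted p = 0.017). 4631405J19Rik rose in WT-HFD EWAT at 0.75 mg/kg and 5 d (0.68, adjusted p = 0.036) and fell in WT-chow RPWAT with WT FGF21 at 2 d (−0.59, adjusted p = 0.038, groups overlapping). Tacr2 fell in db/db-chow RPWAT with WT FGF21 at 5 d (−2.80, SE 0.66, adjusted p = 0.0027), with overlapping groups.

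The remaining pair of calls, both with WT FGF21, came from groups that hold the IWAT arrays standing apart. Tacr2 in WT-HFD at 5 d was higher by 0.90 (adjusted p = 0.011) with those arrays and by 0.23 (adjusted p = 0.19) without them, and Lgr6 in db/db-chow at 2 d gave −0.58 (adjusted p = 0.024) and −0.20 (adjusted p = 0.83). Without both arrays 9 tests were called at 0.75 mg/kg and 9 with WT FGF21, with 4 gained in each. The gains were Pla2g2e in WT-chow at 2 d (1.45 and 1.33) and in WT-HFD at 5 d (1.71 and 1.66), Lgr6 in WT-HFD at 5 d (0.65 and 0.60) and, lower, Slco4a1 in db/db-chow at 5 d (−0.76 and −0.61). Of the 12 calls, 2 kept their side of the threshold whichever replicate number was left out, namely those of Pla2g2e in RPWAT at 0.75 mg/kg and Tacr2 in RPWAT (adjusted p at most 0.048 and 0.035), and the other 10 lost it at least once.

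Tacr2 in RPWAT varied from array to array within vehicle: 17.7 to 269.8 in db/db-chow and 11.3 to 140 in WT-chow, against 13.1 to 18.5 in WT-HFD. A list of 12 kidney and adrenal markers, added after these values were seen since the depot lies beside those organs, had a median log2 change of −2.41 in WT-chow RPWAT and −0.41 in db/db-chow RPWAT at 2.5 mg/kg and 5 d, with 0 of 12 called by limma in either. At an unadjusted p below 0.05 there were 6 and 1. The Tacr2 call in db/db-chow RPWAT was with WT FGF21 at 5 d, a treatment for which marker values are not given here. In that comparison vehicle arrays of Tacr2 read 19.8, 191, 194, 220 and 268 and treated arrays 13.5, 15.6, 16.9, 18.5 and 40.1. The part of these organs in the Tacr2 values was not tested.

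**Figure D5:**
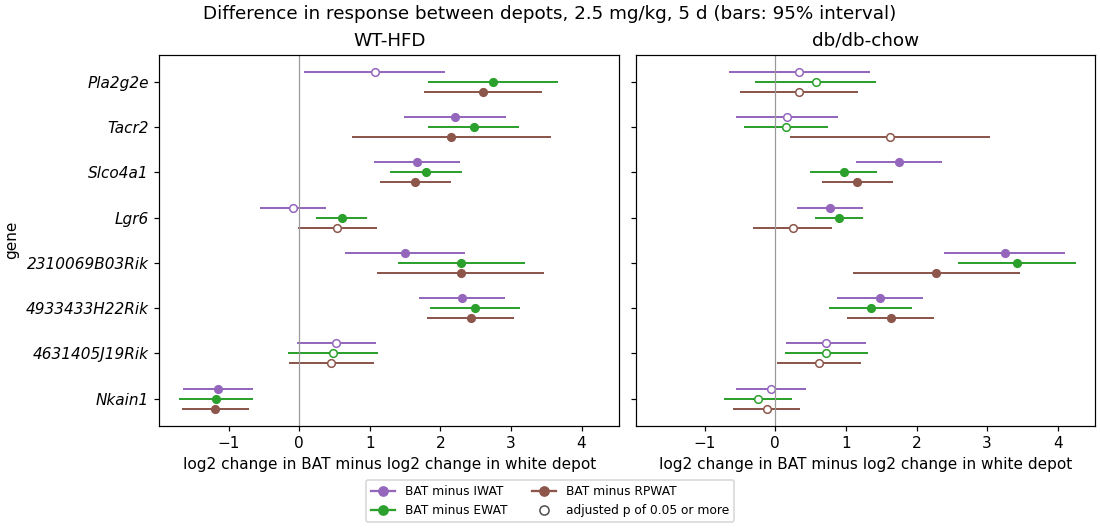
Response of BAT minus response of each white depot at 5 d and 2.5 mg/kg, in log2 units with 95% intervals, in WT-HFD and db/db-chow; filled symbols passed the test. In WT-HFD, Tacr2 stood at 2.21, 2.47 and 2.16 against IWAT, EWAT and RPWAT, and Nkain1 at −1.15, −1.18 and −1.19.

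The difference between BAT and white responses was tested directly in joint fits of BAT with each white depot at 5 d. Tacr2, Lgr6, Nkain1, 2310069B03Rik and 4933433H22Rik lay below the median probe set of every white depot and Slco4a1 below that of IWAT, and the part of these low readings in the differences was not tested. Against IWAT, 5 of 8 differences were called in WT-HFD (3.57% of all probe sets) and 4 in db/db-chow (2.46%). Against EWAT, 7 were called in WT-HFD (9.10%) and 4 in db/db-chow (8.83%), and against RPWAT 6 (9.18%) and 3 (4.57%). 4933433H22Rik (1.35 to 2.49), 2310069B03Rik (1.5 to 3.42) and Slco4a1 (0.97 to 1.80) were called higher in BAT in all 6 comparisons. Tacr2 and Nkain1 differed from every white depot in WT-HFD and from none in db/db-chow. Pla2g2e differed from EWAT (2.75, adjusted p = 1.6e-06) and RPWAT (2.61, adjusted p = 4.2e-07) in WT-HFD, while its difference from IWAT was 1.07 (95% interval 0.09 to 2.06, adjusted p = 0.28) and in db/db-chow no Pla2g2e difference was called. For 4631405J19Rik no difference was called in any of the 6, with values of 0.46 to 0.72. The call of 2310069B03Rik against IWAT in WT-HFD was lost when other groups (adjusted p = 0.25) or other models (adjusted p = 0.061) were left out and with array weights (1.25, adjusted p = 0.072), and that of Lgr6 against IWAT in db/db-chow when other models were left out (adjusted p = 0.075). In db/db-chow 4631405J19Rik passed against EWAT after quantile normalization (0.91, adjusted p = 0.027) and against IWAT when other groups were left out (0.72, adjusted p = 0.022), and Tacr2 reached the threshold against RPWAT with array weights (1.91, adjusted p = 0.05). Leaving out a replicate number ended the calls of 2310069B03Rik against IWAT in WT-HFD (1.07, adjusted p = 0.25) and against RPWAT in db/db-chow (2.12, adjusted p = 0.064), of Lgr6 against IWAT in db/db-chow (0.69, adjusted p = 0.29) and EWAT in WT-HFD (0.48, adjusted p = 0.15), and of Tacr2 against RPWAT in WT-HFD (2.09, adjusted p = 0.1). By the study's methods each treatment group had 5 animals, and BAT and the 3 white depots were all frozen from them. Depots of a group therefore share mice, but the labels do not state which arrays pair. The joint fits took all arrays as independent.

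Relatives of the members were counted in BAT at 2.5 mg/kg against the shares of all probe sets given above, which for rises were 2.00% and 5.90% in WT-HFD at 2 d and 5 d and 5.39% and 9.14% in db/db-chow, and for falls 3.98%, 8.14%, 4.06% and 9.63%. Of 10 other secreted phospholipases A2, 0 and 1 rose in WT-HFD at 2 d and 5 d and 1 and 2 in db/db-chow. Pla2g12a accounted for 3 of these (0.47 in WT-HFD at 5 d, 0.27 and 0.66 in db/db-chow) and Pla2g12b for the other (0.43). Of 5 tachykinins and other receptors, Tacr3, the neurokinin B receptor, alone was called (0.32 in db/db-chow at 5 d, adjusted p = 0.048). Of 13 other organic anion transporters none rose, and Slco2b1 fell in db/db-chow (−0.27 and −0.36), as did Slco3a1 at 5 d (−0.46). The median log2 change of each of these lists lay between −0.15 and 0.15. The counts were not tested against those shares.

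Among 11 genes of R-spondin signaling, Rspo4, a ligand of Lgr6 and its relatives, was called in opposite directions in the models at 2 d: −1.49 (SE 0.36, adjusted p = 0.0028) in WT-HFD and 2.24 (SE 0.36, adjusted p = 1.1e-06) in db/db-chow. At 5 d it gave −0.31 (adjusted p = 0.71) and 1.96 (adjusted p = 9.5e-06). The difference between models was not tested for Rspo4. Znrf3, a ubiquitin ligase that removes Wnt receptors and is held off by R-spondins, rose by 0.27 in WT-HFD at 5 d and by 0.40 in db/db-chow at 2 d. Of 7 measured sodium pump subunits and Nkain relatives, 2 rose in WT-HFD at 5 d (5.90% of all probe sets did), and Atp1b3 fell in db/db-chow at both days (−0.13 and −0.26), joined by Atp1b2 at 5 d (−0.76), when 9.63% of all probe sets fell.

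Over the 119 BAT arrays, with each model's mean removed, the levels closest to Pla2g2e were those of Atp6v0a2 (r = 0.88), a subunit of the vacuolar proton pump, Cux1 (r = 0.87), a transcription factor, and 4933433H22Rik (r = 0.85). Tacr2 ran closest to Adcy3 (r = 0.85), an adenylyl cyclase, Cpne5 (r = 0.85) and Alpl (r = 0.84), the tissue-nonspecific alkaline phosphatase. Slco4a1 ran closest to Nradd (r = 0.86), Brd3 (r = 0.85) and S1pr5 (r = 0.85), and Lgr6 to Gpam (r = 0.81), which starts glycerolipid synthesis in mitochondria, Ctcflos (r = 0.79) and Usp8 (r = 0.78). 2310069B03Rik had the closest partners of all 8: Mtarc1 (r = 0.94), Gpi1 (r = 0.90), the glycolytic glucose phosphate isomerase, and Acot11 (r = 0.90), a thioesterase of brown fat. 4933433H22Rik ran with Tectb (r = 0.91), Pla2g2e and the lysosomal acid lipase Lipa (r = 0.84). Nkain1 (at most 0.69, with Prnp) and 4631405J19Rik (at most 0.68, with Nudt5) had weaker partners. These are descriptions. The arrays share treatments and days, and the parts of these and of the animals in r were not tested, and 40 of the 119 are the WT-chow arrays whose responses chose the members. Over the other 79 arrays, a split added after the values were seen, the 24 correlations ran from 0.61 to 0.94 in place of 0.66 to 0.94, and that of Pla2g2e with 4933433H22Rik was 0.82.

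Of 17 named protein-coding genes next to or overlapping a member on the chromosome, 15 were measured and 7 were called at least once in the 4 BAT comparisons at 2.5 mg/kg, with 13 calls in 60 tests. By comparison, 1 of 15 rose and 1 fell in WT-HFD at 2 d (2.00% and 3.98% of all probe sets), 1 rose and 0 fell at 5 d (5.90% and 8.14%), and in db/db-chow 4 rose and 1 fell at 2 d (5.39% and 4.06%) and 3 rose and 2 fell at 5 d (9.14% and 9.63%). Hk2, a hexokinase beside 2310069B03Rik, rose in db/db-chow (0.76, adjusted p = 3.6e-08, and 0.67, adjusted p = 4.8e-07) and gave −0.21 (adjusted p = 0.32) and 0.16 (adjusted p = 0.4) in WT-HFD. Hk1, another hexokinase, beside Tacr2, also rose in db/db-chow (0.68 and 0.82), where Tacr2 gave no called change, and Tspan15 on the other side of Tacr2 rose there at 2 d (0.43, adjusted p = 0.001). Zfp36l2, beside 4933433H22Rik, fell in db/db-chow at 5 d (−0.40, adjusted p = 0.019). Otud3, beside Pla2g2e, rose in WT-HFD (0.44 and 0.56), and Pla2g5 on its other side was not called in either model. Prdm11, which overlaps 4631405J19Rik, rose in db/db-chow (0.48 and 0.40), and neighbouring Trp53i11 fell there (−0.88 and −0.76) and in WT-HFD at 2 d (−0.53, adjusted p = 0.048). Whether the 4631405J19Rik and Prdm11 probes are read by strand is not given in the sources used here.

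Marker lists of cell types were read in BAT, and those of brown adipocytes, skeletal muscle, macrophages and endothelial cells are given here. Lists for adipocytes, skin and hair follicle, Schwann cells, epithelium and lymphocytes were also drawn up, and their values are not given here. No sums of white depots are given either, so these values do not check the tissue labels against white fat. Brown adipocyte markers (10 genes including Ucp1 and Cidea) summed to 47800 to 57300 intensity units in vehicle and 2.5 mg/kg BAT arrays of WT-HFD and to 26800 to 32800 in db/db-chow. BAT array medians differed in the same direction, at 29 to 31 and 18.1 to 19.3, and their part in these sums was not tested. At 2.5 mg/kg 4 of the 10 rose at 2 d and 4 rose and 1 fell at 5 d in WT-HFD, and 3 rose, then 5 rose and 1 fell, in db/db-chow. The matching shares of all probe sets were 2.00% higher at 2 d and 5.90% higher with 8.14% lower at 5 d, then 5.39% higher and 9.14% higher with 9.63% lower. The skeletal muscle markers varied widely between BAT arrays, from 361 to 70400 in WT-HFD and from 1790 to 80400 in db/db-chow, with median changes at 2.5 mg/kg of 1.22 at 2 d and −0.88 at 5 d for WT-HFD, and of −0.18 and −1.46 for db/db-chow. Limma called 0 of the 12 in each, and 0 had an unadjusted p below 0.05. In db/db-chow at 5 d, 2 of 7 macrophage markers fell (summed 2540 to 3890 in vehicle and 2180 to 2890 in treated arrays), and of 7 endothelial markers 5 fell and 1 rose (5540 to 6040 and 4970 to 5180), while 9.63% of all probe sets fell and 9.14% rose. No macrophage marker was called in the other 3 comparisons. The part of these cells in the members' changes was not tested.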

How the data were processed

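RNA from each depot was hybridised to a custom Affymetrix mouse array. The authors ran RMA in Rosetta Resolver (background correction, normalization between arrays, summary over probes). Deposited intensities run from 1.653 to 22400 and were taken as a linear scale from that range, since the labels do not state it. RMA scales arrays towards one another and shrinks differences among dim probe sets. Here array medians were close within a depot and model but stayed apart between them, as with 11.15 to 11.83 in WT-chow BAT and 57.07 to 62.01 in WT-chow IWAT. The part of this in differences between models or depots was not tested. The number of arrays limits the precision. The log2 of the deposited intensity was tested with limma 3.58.1 in R 4.3.3, with a mean for each of 24 groups per depot, eBayes with a trend, and Benjamini-Hochberg adjustment over all 43681 probe sets, called at 0.05. BAT was fitted jointly with each white depot for differences in response. Replicates were separate animals according to the study's methods. Arrays with 3 or 4 per group were used as they stand.

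Named genes were all 8 members, up to 2 called genes per list of relatives, and the 3 genes with the highest Pearson r to each member over BAT arrays. The members and lists were chosen with earlier results of these data known. Same-numbered replicates were not paired. The fits were tested on simulated data with the groups of WT-HFD BAT and of db/db-chow RPWAT, at 2.5 mg/kg and 5 d. Of 67 simulated log2 changes of 0.5, 30 were called in BAT and 22 in RPWAT. Of 67 changes of 1, 66 and 65 were called. A missing call therefore does not show that a change near 0.5 is absent. Larger changes of members also went uncalled by limma at 2.5 mg/kg. Pla2g2e in WT-chow IWAT at 2 d gave 1.62 (adjusted p = 0.055). Tacr2 in db/db-chow RPWAT at 5 d gave −1.54 (adjusted p = 0.23). Recovery at the spread of the members' own arrays was not tested. Alternatives were array weights, quantile normalization, a filter on dim probe sets, fewer groups in the fit, the kind of analysis of variance the study's methods name (adjusted here, and without their filters on fold change and presence), the mean of a gene's probe sets, a replicate block and left-out arrays. Promoters came from RefSeq (GRCm38.p6), as did current gene names. The strand and genome build of the probes are not given in the sources used here.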

Additional observations from a re-analysis of the deposited data

Results flagged for a closer look

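In 8 of 130 groups of 4 or 5 arrays examined, a single array lay far from the others, and chance flags about 1 in 20 such groups. The 130 are only a part of the groups of the 8 genes, and every flag outside BAT is of Pla2g2e. Tacr2 in db/db-chow IWAT with vehicle at 2 d, with a highest array of 106.9 (next 31.2), is not among the flags. Counts per gene are therefore not rates. Pla2g2e had 5 of the 8. Its highest array was 93 (next 61.4) in db/db-chow BAT at 2.5 mg/kg and 5 d, and 158.6 (next 80.5) in db/db-chow EWAT with vehicle at 5 d. Its lowest array was 45.6 (next 125) in WT-chow BAT at 2.5 mg/kg and 2 d, 73.9 (next 127.7) in WT-HFD BAT with vehicle at 5 d, and 113.8 (next 495) in WT-HFD RPWAT with vehicle at 5 d. The lowest array was 109.9 (next 153.2) for Slco4a1 in WT-chow BAT at 2.5 mg/kg and 5 d, 16.6 (next 26.2) for Nkain1 in WT-HFD BAT with vehicle at 2 d, and 4.5 (next 7.3) for 4933433H22Rik in db/db-chow BAT with vehicle at 5 d.

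The response of BAT to 2.5 mg/kg differed between WT-HFD and db/db-chow for 7 member tests. On the log2 scale WT-HFD minus db/db-chow was 1.42 for 4933433H22Rik, −4.37 for 2310069B03Rik and 1.77 for Pla2g2e at 2 d. At 5 d it was 2.32 for Tacr2, 2.02 for Pla2g2e, −0.88 for Nkain1 and 0.90 for Slco4a1. The response at 5 d minus that at 2 d was 2.56 for 2310069B03Rik and 1.5 for Tacr2 in WT-HFD, and 1.18 for 4933433H22Rik in db/db-chow.

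The BAT response at 5 d differed from a white depot's in 29 member tests. In WT-HFD, BAT minus IWAT was 2.30 for 4933433H22Rik, 1.5 for 2310069B03Rik, 2.21 for Tacr2, −1.15 for Nkain1 and 1.67 for Slco4a1. In db/db-chow it was 1.48 for 4933433H22Rik, 3.25 for 2310069B03Rik, 0.78 for Lgr6 and 1.75 for Slco4a1. BAT minus EWAT in WT-HFD was 2.49 for 4933433H22Rik, 2.30 for 2310069B03Rik, 0.60 for Lgr6, 2.47 for Tacr2, 2.75 for Pla2g2e, −1.18 for Nkain1 and 1.80 for Slco4a1. In db/db-chow it was 1.35 for 4933433H22Rik, 3.42 for 2310069B03Rik, 0.91 for Lgr6 and 0.97 for Slco4a1. BAT minus RPWAT in WT-HFD was 2.43 for 4933433H22Rik, 2.29 for 2310069B03Rik, 2.16 for Tacr2, 2.61 for Pla2g2e, −1.19 for Nkain1 and 1.65 for Slco4a1. In db/db-chow it was 1.63 for 4933433H22Rik, 2.28 for 2310069B03Rik and 1.16 for Slco4a1.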

How the results depend on the processing

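The count of 24 member calls in BAT at 2.5 mg/kg stayed within 1.5 times under every alternative run. The 36 calls of the lower dose and WT FGF21 became 21 under an analysis of variance, the kind of test the study's methods name, here adjusted and without their fold and presence filters. The 6 white calls became 10 with array weights, 10 with only the depot and model compared and 2 under the analysis of variance, and 3 to 11 when a replicate number was left out. The 5 average white effects became 9 with array weights, 2 of 8 tests with only probe sets above the depot median, 8 without 2 IWAT arrays, and 3 to 6 without a replicate number. The 3 day differences became 0 when other groups were left out of the fit and 0 to 3 without a replicate number. Leaving out a replicate number gave 22 to 23, 31 to 34, 6 to 8 and 24 to 27 in place of 24, 36, 7 (model differences) and 29 (BAT minus white). Of 6029 single results under alternatives, 5841 kept their side of the threshold, 128 lost it, 60 gained it and 0 reversed. The cause was not tested.

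With the replicate number as a block, the counts were 24, 36, 6, 5, 7, 3, 0 and 29, as without it, and none of 376 single tests changed its side of the threshold. Each array's log2 values, less the mean of its group, were correlated with those of its same-numbered array. For treated and vehicle arrays, which are of different animals, Pearson r was over 0.1 in 7 of 30 pairs in BAT and 7 of 30 in IWAT. In EWAT it was so in 10 of 26 and in RPWAT in 11 of 27. For BAT and a white depot with the same group and number, r was over 0.1 in 33 of 119 pairs (IWAT), 26 of 114 (EWAT) and 25 of 113 (RPWAT). The median r of these sets ran from −0.038 to 0.05, and the numbers were not taken to pair the samples. Averages were not fitted with fewer groups or by analysis of variance, nor model differences within a single model.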
